A study of Mus musculus with 8 samples.

Results

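Transcripts of 52 genes of fatty acid oxidation, of pyruvate entry into mitochondria and of the citrate cycle were followed in hearts of connexin43 null neonatal mice and in hearts of wildtype neonatal mice. The genes were taken by name: a probe counted when its 1 annotated gene symbol was on the list, and a gene was fitted when no fewer than 3 null and 3 wildtype arrays gave it a value. Of the 52 genes 40 were fitted, among 11804 features in all. The null hearts lacked connexin43, the gap junction protein encoded by Gja1, and both genotypes were of C57BL mice. Neonatal hearts were pooled in threes, each pool was labelled with Cy3 for its own array, and 4 null and 4 wildtype pools were made. Cy5 marked 1 reference cDNA from organs of adult C57BL males and females, heart included. The labels give neither the exact age nor the construction of the null allele.

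Heart muscle draws most of its energy from fatty acids after birth, while before birth it relies more on glucose and lactate. Fatty acids enter the cell, are bound to coenzyme A, cross the inner mitochondrial membrane as carnitine esters and are shortened in a repeating cycle of dehydrogenation, hydration, a further oxidation and thiolysis. The acetyl-CoA formed there, and that formed from pyruvate by the pyruvate dehydrogenase complex, is burnt in the citrate cycle. The malate-aspartate shuttle, built from malate dehydrogenases and aspartate transaminases, carries reducing equivalents from the cytosol into the same compartment.

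Each value is the log2 of heart over reference after setting the array median to 0, a direction and log base taken from the values themselves, so that a value above 0 marks a gene that stands higher in neonatal heart, against the adult reference, than the median spot does. A spot had a value on 17879 to 20212 of 28704 positions on the null arrays and on 12971 to 23929 on the wildtype arrays. Wildtype replicate 1 had the fewest, and its median rank correlation with the other arrays was 0.576, against 0.663 to 0.792 for the other 7. Gja1, the deleted gene, read -0.29, 0.25, 0.12 and 0.22 in null hearts, against 1.04, 1.31, 0.99 and 0.79 in wildtype hearts, with no overlap (exact two-sided permutation test, p = 0.0286, the smallest that 70 assignments allow; adjusted p = 0.340 in limma). The 8 fitted markers of heart muscle cells, of 19 listed, had mean log2 ratios of 0.67 to 0.93 on null arrays and 0.71 to 0.85 on wildtype arrays. In a pool of hearts, fewer muscle cells and less RNA per muscle cell cannot be told apart.

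No gene of these pathways passed the test between genotypes. In the limma fit, 0 of 40 genes had an adjusted p under 0.05, as did 0% of all 11804 features. Differences are null minus wildtype, and their standard errors for these genes were 0.09 to 0.19, so that 35 of the 40 95% intervals held 0. The null value was the lower one for 28 of 40 genes, or 70%, where 59.1% of all features were lower, and the median difference of the 40 genes was -0.06, against -0.04 for all features. With each array left out in turn the lower genes numbered 23 to 32. The 23 were found without wildtype replicate 3, where 57.5% of all features were lower. The medians were then -0.02 for the 40 genes and -0.04 for all features. Without centring of the arrays the median of all features was -0.18 and 39 of the 40 genes were lower, as were 85% of all features, so each difference is relative to the array median. Of the 12 genes with a higher null mean, Dlst alone then kept it (0.0134). The median size of the difference, without its sign, was 0.12 for these genes and 0.12 for all features.

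At an unadjusted p under 0.05, 5 genes had lower null values, or 12.5%, where 6.13% of all features did, and 0 genes had higher null values, where 2.1% of all features did. They were Slc25a20, Eci2, Pdhb, Fh1 and Got2, each with an adjusted p of 0.57 to 0.59 in limma. That count rested on single arrays: it was 3, 2, 2 and 3 without wildtype replicates 1 to 4 and 2, 4, 1 and 3 without null replicates 1 to 4. In those fits 4.27% to 6.38% of all features were lower at that p. In 5 genes the highest null value was below the lowest wildtype one (Cpt1a, Pdhb, Aco1, Got1 and Got2), or 12.5%, where 5.54% of all features did so. Without wildtype replicate 2 there were 8 such genes, but groups of fewer arrays are apart more easily. The share of all features was not counted in that fit. In 1 gene, Idh3b, the lowest null value was above the highest wildtype one, where 2% of all features did so.

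**Figure D1:**
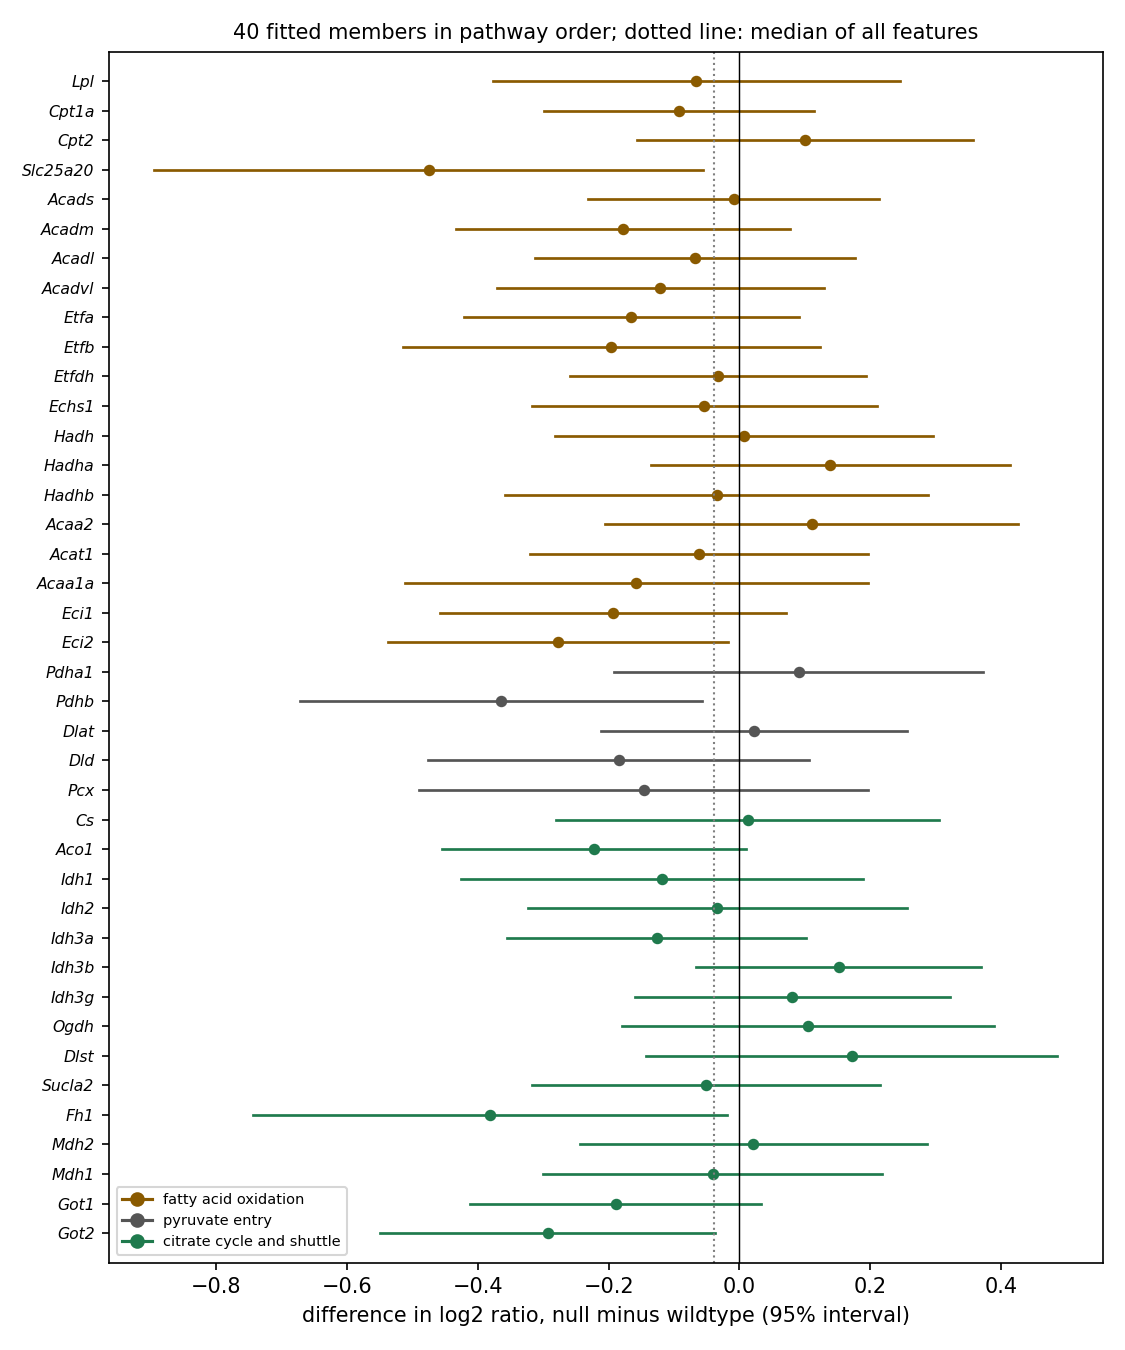
Difference in log2 ratio, null minus wildtype (x axis), with its 95% interval from limma for each of the 40 fitted genes (y axis), in pathway order from uptake of fatty acids to the transaminases. The solid line marks 0 and the dotted line the median of all features, -0.04; the intervals of Slc25a20, Eci2, Pdhb, Fh1 and Got2 lie below 0, and 35 intervals hold 0.

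Those 8 genes, with an unadjusted p under 0.05 or with lower null values that did not overlap, were looked at for a shared sequence. AGGTCA, a motif bound by nuclear receptors such as the PPARs and the estrogen-related receptors that control fatty acid oxidation genes, was searched on both strands in the 250 bases before each start in RefSeq's promoter sequences (GRCm38.p6). It stood in 4 of these 8 genes, in 8 of the 36 fitted genes that have a promoter entry (22.2%) and in 15.8% of all genes with an entry. The 8 genes were picked after their values were seen, so the share is a description, and a match is not a binding site. The 4 upstream stretches are shown 5′ to 3′ on the strand of the gene, with the match in capitals, which reads TGACCT where it lies on the other strand. They are Cpt1a at chr19:3323051-3323300 (forward strand), Fh1 at chr1:175625636-175625885 (reverse strand), Got1 at chr19:43524606-43524855 (reverse strand) and Got2 at chr8:95888402-95888651 (reverse strand).
Cpt1a: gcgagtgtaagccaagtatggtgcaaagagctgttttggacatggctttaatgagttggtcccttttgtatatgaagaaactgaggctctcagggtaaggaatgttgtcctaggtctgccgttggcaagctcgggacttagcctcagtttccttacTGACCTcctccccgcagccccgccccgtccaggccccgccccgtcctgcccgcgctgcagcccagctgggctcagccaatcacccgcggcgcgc
Fh1: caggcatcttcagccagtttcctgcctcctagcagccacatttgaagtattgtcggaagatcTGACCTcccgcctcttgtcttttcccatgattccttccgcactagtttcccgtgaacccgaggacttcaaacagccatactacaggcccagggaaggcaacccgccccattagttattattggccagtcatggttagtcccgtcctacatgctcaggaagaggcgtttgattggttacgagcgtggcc
Got1: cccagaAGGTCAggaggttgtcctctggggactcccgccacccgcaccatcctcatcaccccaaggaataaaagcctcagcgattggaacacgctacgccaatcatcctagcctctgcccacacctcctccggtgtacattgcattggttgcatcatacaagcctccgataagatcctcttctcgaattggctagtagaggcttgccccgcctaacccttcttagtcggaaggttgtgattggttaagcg
Got2: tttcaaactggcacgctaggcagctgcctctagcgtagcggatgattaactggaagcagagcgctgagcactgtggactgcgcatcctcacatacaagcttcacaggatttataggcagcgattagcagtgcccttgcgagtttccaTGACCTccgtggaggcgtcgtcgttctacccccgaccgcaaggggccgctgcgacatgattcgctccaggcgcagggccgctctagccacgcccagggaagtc
The matches begin 94 bases before the start in Cpt1a, 188 in Fh1, 244 in Got1 and 103 in Got2, so they share no position, and only that of Got1 lies on the strand of the gene.

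Uptake and activation could be followed through 1 gene. Lpl, the lipase that frees fatty acids from circulating triglycerides, read 0.20, 0.52, 0.16 and 0.48 in null hearts, against 0.52, 0.07, 0.49 and 0.56 in wildtype hearts, and the groups overlapped. The difference of -0.07 (SE 0.14) was -0.18 without wildtype replicate 2 and -0.0063 without null replicate 3. The fatty acid transporter gene Cd36 had a probe with no value on any array. The binding protein genes Fabp3 and Fabp4 and the acyl-CoA synthetase gene Acsl1 had no probe with 1 symbol.

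The carnitine shuttle held the gene with the largest difference, the carnitine-acylcarnitine carrier Slc25a20. Its values were -0.74, 0.08, -0.09 and 0.05 in null hearts, against 0.62, 0.07, 0.36 and 0.15 in wildtype hearts, a difference of -0.48 (SE 0.19, 1.39-fold, adjusted p = 0.568 in limma). Null replicate 1 was far below all other arrays, wildtype replicate 1 far above them, and null replicate 2 lay above wildtype replicate 2. The difference was -0.29 without null replicate 1. Both probes gave a lower null value, by -0.24 on one and -0.71 on the other.
Cpt1a, the form of the outer membrane carnitine palmitoyltransferase that leads in liver and fetal heart, differed by -0.09 (SE 0.09). Its null values were -0.10, -0.10, -0.18 and -0.05, against -0.02, -0.04, 0.03 and -0.04 in wildtype hearts. They did not overlap, but the gap between null replicate 4 and wildtype replicate 4 was narrower than the SD of either group, 0.05 in null hearts and 0.03 in wildtype hearts. Cpt2, the enzyme that frees the acyl group inside the mitochondrion, differed by 0.10 (SE 0.12; -0.0585 without centring; 0.056 without wildtype replicate 4 and 0.1723 without null replicate 1), with -0.37, -0.02, -0.05 and -0.17 in null hearts, against -0.21, -0.31, -0.11 and -0.39 in wildtype hearts. It is the 1 measured gene of the shuttle with a higher mean in null hearts, and its groups overlapped. Cpt1b, the muscle form, and the carnitine acetyltransferase gene Crat had no probe with 1 symbol.

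The acyl-CoA dehydrogenases take the first electrons from the chain, each for a range of chain lengths, and all 4 had a lower mean in null hearts, by -0.18 to -0.01. The medium-chain enzyme Acadm had the largest difference of them, -0.18 (SE 0.12), with 0.36, 0.44, 0.32 and 0.44 in null hearts, against 0.34, 0.50, 0.66 and 0.77 in wildtype hearts. Only wildtype replicate 1 lay within the null range. The difference was -0.25 without that array and -0.11 without wildtype replicate 4. The very-long-chain enzyme Acadvl read 0.05, 0.34, 0.32 and 0.23 in null hearts, against 0.37, 0.16, 0.43 and 0.46 in wildtype hearts, and wildtype replicate 2 lay among the null arrays. The long-chain enzyme Acadl read 0.83, 0.80, 0.95 and 0.82 in null hearts, against 0.92, 0.70, 1.10 and 0.94 in wildtype hearts, the highest ratios over the reference among the fatty acid oxidation genes. The short-chain enzyme Acads had the smallest difference, -0.01 (95% interval -0.23 to 0.21).

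Electrons from these enzymes pass to the electron transfer flavoprotein and from there to the enzyme encoded by Etfdh. The 3 genes of this step also had lower means in null hearts. The alpha subunit gene Etfa read 0.31, 0.28, 0.12 and 0.38 in null hearts, against 0.28, 0.43, 0.67 and 0.36 in wildtype hearts, a difference of -0.17 (SE 0.12) that was -0.12 and -0.21 on its 2 fitted probes. The groups overlapped, and without wildtype replicate 3 the difference was -0.09. The beta subunit gene Etfb differed by -0.20 (SE 0.14), and Etfdh, whose product hands the electrons to ubiquinone, by -0.03 (SE 0.10).

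The later reactions of the cycle had differences of both signs. Among the hydratase, dehydrogenase and thiolase genes 4 had lower and 3 higher means in null hearts, with a median of -0.03. Of these Hadh counts as higher by its fitted 0.01, although both of its probes had slightly lower null means (-0.0377 and -0.00509), 1 of them with a missing array. Hadha and Hadhb encode the 2 subunits of the mitochondrial trifunctional protein. Hadha read 0.27, 0.73, 0.60 and 0.54 in null hearts, against 0.28, 0.42, 0.33 and 0.57 in wildtype hearts, a difference of 0.14 (SE 0.12; -0.0195 without centring), which was 0.0748 without null replicate 2 and 0.2269 without null replicate 1. Hadhb read 0.00, 0.41, 0.40 and 0.32 in null hearts, against 0.10, 0.20, 0.67 and 0.31 in wildtype hearts, a difference of -0.03 (SE 0.15; 0.0811 without wildtype replicate 3). Both overlapped, and replicate 1 of each genotype was the lowest array of its group for both genes. The differences of Echs1 (enoyl-CoA hydratase, -0.05), Hadh (the short-chain 3-hydroxyacyl-CoA dehydrogenase, 0.01), Acaa2 (the matrix thiolase, 0.11) and Acat1 (the acetoacetyl-CoA thiolase, -0.06) had standard errors of 0.12 to 0.14. Acaa1a, a thiolase of peroxisomes, stood apart by its ratio to the reference, with a null mean of -0.80 ± 0.19 and a wildtype mean of -0.64 ± 0.30 (SD over 4 pools).

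Unsaturated fatty acids need the enoyl-CoA isomerases, and both measured ones had lower means in null hearts. Eci2 read 0.16, 0.46, 0.19 and 0.34 in null hearts, against 0.76, 0.56, 0.54 and 0.40 in wildtype hearts, a difference of -0.28 (SE 0.12, 1.21-fold, adjusted p = 0.590 in limma). Null replicate 2 was the 1 null array above a wildtype array, replicate 4, and the 2 probes gave -0.32 and -0.24. Eci1 differed by -0.19 (SE 0.12), but its 3 probes gave -0.41, 0.09 and -0.26. The dienoyl-CoA reductase gene Decr1 had a probe with no value. Of the regulators, Pdk4, a kinase that holds pyruvate dehydrogenase inactive, had a probe with no value, and Ppara, the nuclear receptor of fatty acid oxidation, and Ucp2 had no probe with 1 symbol. These 3 genes were not analysed here.

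**Figure D2:**
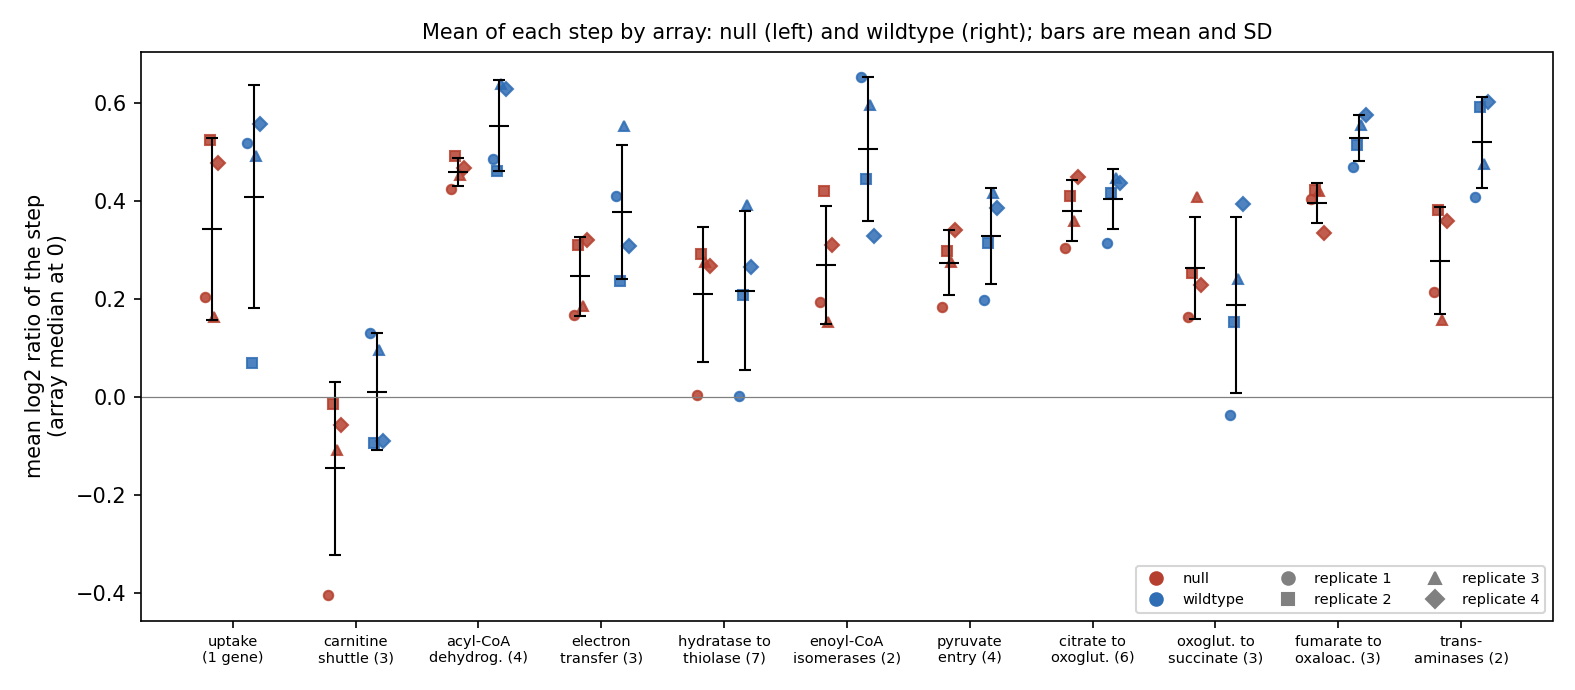
Mean log2 ratio of the genes of each step on each array (y axis, array median at 0) for null (left) and wildtype (right) hearts, over the genes with values on all 8 arrays, whose number stands under each step; bars are the mean and SD over 4 arrays. The step from fumarate to oxaloacetate and the transaminases are the 2 steps whose arrays do not overlap, and all other steps do. In the first of these Fh1, whose own groups overlap, differed by -0.38 on 1 probe, Mdh1 by -0.04 and Mdh2 by 0.02.

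In pyruvate entry the subunit genes of 1 complex had differences of both signs, and the contrasts between these genes were not tested. Pdhb, the beta subunit of the E1 enzyme of pyruvate dehydrogenase, read 0.48, 0.58, 0.24 and 0.66 in null hearts, against 0.93, 0.68 and 0.95 in wildtype replicates 2 to 4, with no value on wildtype replicate 1. The groups did not overlap, and the difference was -0.36 (SE 0.14, 1.29-fold, adjusted p = 0.568 in limma) on 1 probe. Pdha1, the alpha subunit of the same enzyme, read 0.43, 0.69, 0.63 and 0.66 in null hearts, against 0.43, 0.49, 0.31 and 0.81 in wildtype hearts, a difference of 0.09 (SE 0.13) that was positive on all of its 3 fitted probes and -0.0682 without centring. It was 0.0228 without wildtype replicate 3 and 0.1917 without wildtype replicate 4. Wildtype replicate 4 was above every null array for Pdha1, so the groups overlapped. The E2 gene Dlat differed by 0.02 (SE 0.11) and the E3 gene Dld, whose product also serves oxoglutarate dehydrogenase, by -0.18 (SE 0.13). The pyruvate carboxylase gene Pcx, which feeds oxaloacetate to the cycle, differed by -0.15 (SE 0.16) on 1 fitted probe. It stood below 0 in both genotypes, with a null mean of -0.64 ± 0.19 and a wildtype mean of -0.49 ± 0.29 (SD over 4 pools). A further probe with too few values to be fitted read higher, at 0.00, -0.25 and 0.23 on null replicates 1, 3 and 4 and 0.39 on wildtype replicate 2.

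From citrate to oxoglutarate 4 genes had lower and 3 higher means in null hearts. Citrate synthase, Cs, read 0.41, 0.75, 0.67 and 0.81 in null hearts, against 0.42, 0.75, 0.56 and 0.85 in wildtype hearts, and the difference of 0.01 had a 95% interval of -0.28 to 0.30. Aco1 encodes the cytosolic aconitase, which doubles as an iron-regulated RNA-binding protein. It read -0.27, -0.15, -0.10 and -0.11 in null hearts, against 0.23, 0.08, 0.01 and -0.05 in wildtype hearts, a difference of -0.22 (SE 0.11) without overlap. Idh3a, Idh3b and Idh3g encode the subunits of the NAD-dependent isocitrate dehydrogenase and differed by -0.13, 0.15 and 0.08, with standard errors of 0.10 to 0.11. Idh3b read 0.32, 0.40, 0.34 and 0.45 in null hearts, against 0.15, 0.30, 0.14 and 0.31 in wildtype hearts, and did not overlap. Its difference was 0.40 on 1 of 4 probes and 0.01, 0.05 and 0.14 on the others, and -0.01 without centring of the arrays. Idh2, the NADP-dependent enzyme of mitochondria, differed by -0.03 (SE 0.13), and Idh1, its cytosolic counterpart, by -0.12 (SE 0.14) over 4 null and 3 wildtype arrays.

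From oxoglutarate to succinate the higher means were in null hearts for 2 of 3 genes. Dlst, the E2 enzyme of oxoglutarate dehydrogenase, read 0.41, 0.29, 0.67 and 0.27 in null hearts, against 0.07, 0.04, 0.29 and 0.55 in wildtype hearts. Its difference of 0.17 (SE 0.14) was 0.29 on one probe and 0.02 on the other. Leaving out null replicate 3 gave 0.0899, and leaving out wildtype replicate 2 or 4 gave 0.0894 or 0.2729. Ogdh, the E1 enzyme, read 0.19, 0.30, 0.35 and 0.28 in null hearts, against -0.13, 0.30, 0.11 and 0.42 in wildtype hearts, a difference of 0.10 (SE 0.13), which was 0.0033 without wildtype replicate 1 and -0.0535 without centring. In both genes wildtype replicate 4 was above at least 3 null arrays, so the groups overlapped. Sucla2, a subunit of succinyl-CoA synthetase, differed by -0.05 (SE 0.12). Suclg1 and Suclg2, genes of other subunits of such enzymes, had no probe with 1 symbol.

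Fumarase had the second largest difference of all 40 genes. Fh1 read 0.70, 0.42, 0.37 and -0.07 in null hearts, against 1.02, 0.58, 0.66 and 0.69 in wildtype hearts, a difference of -0.38 (SE 0.16, adjusted p = 0.591 in limma) on 1 probe. Null replicate 1 lay among the wildtype arrays and null replicate 4 far below the rest, and without null replicate 4 the difference was -0.24. Differences between fumarase and the malate dehydrogenases were not tested. Mdh2, the mitochondrial form, read 0.02, 0.30, 0.33 and 0.43 in null hearts, against 0.06, 0.36, 0.27 and 0.31 in wildtype hearts, a difference of 0.02 (95% interval -0.24 to 0.29). Its 2 probes had unlike ratios to the reference, 0.67 and -0.13 in null hearts and 0.78 and -0.21 in wildtype hearts. Mdh1, the cytosolic form, differed by -0.04 (SE 0.12) over 4 probes.

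Both aspartate transaminases, which pass amino groups between glutamate and aspartate on either side of the inner membrane, had null values that stayed under the wildtype range. Got2, the mitochondrial enzyme, read 0.47, 0.66, 0.30 and 0.60 in null hearts, against 0.67, 0.94, 0.76 and 0.84 in wildtype hearts, a difference of -0.29 (SE 0.12, 1.23-fold, adjusted p = 0.568 in limma). Got1, the cytosolic enzyme, read -0.05, 0.10, 0.02 and 0.12 in null hearts, against 0.15, 0.25, 0.19 and 0.36 in wildtype hearts, a difference of -0.19 (SE 0.10, 1.14-fold, adjusted p = 0.620 in limma). With each array left out in turn the differences were -0.34 to -0.22 for Got2 and -0.22 to -0.15 for Got1, and each gene had 1 fitted probe. These are the 2 genes whose upstream AGGTCA matches lie 103 and 244 bases before the start.

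**Figure D3:**
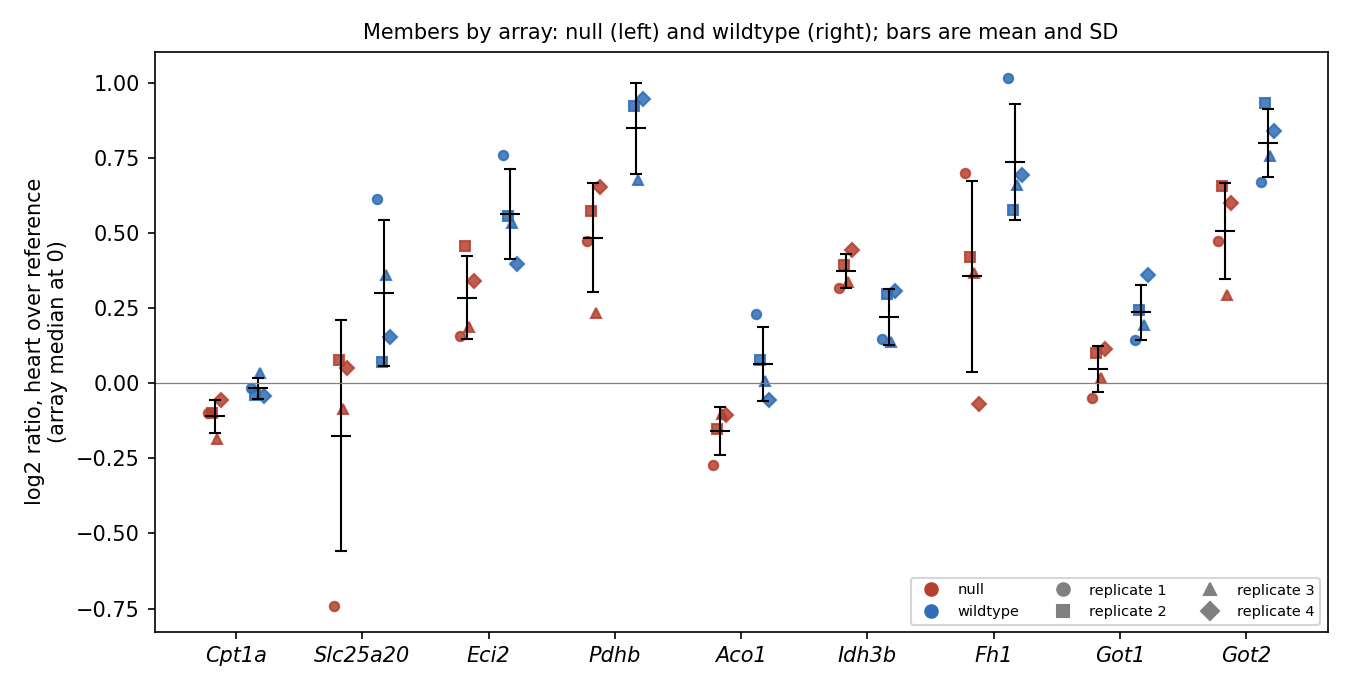
Log2 ratio of heart over reference (y axis, array median at 0) on each null (left) and wildtype (right) array for the 9 genes with an unadjusted p under 0.05 or with groups that do not overlap, with the mean and SD of each group. Cpt1a, Pdhb, Aco1, Got1 and Got2 lie lower in all null arrays than in any wildtype array and Idh3b higher with centred arrays, while Slc25a20, Eci2 and Fh1 overlap.

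Level against the reference varied more between genes than between genotypes. The mean ratio was above 0 for 33 of 40 genes in null hearts and for 35 of 40 in wildtype hearts, against 5625 and 6271 of all 11804 features. The genes below 0 in both genotypes were Cpt1a, Cpt2, Acaa1a, Pcx and Idh1, and in null hearts also Slc25a20 and Aco1. Among these are the peroxisomal thiolase Acaa1a and the cytosolic enzymes Idh1 and Aco1, but also the mitochondrial proteins of Cpt1a, Cpt2, Slc25a20 and Pcx. The citrate cycle enzymes of mitochondria stood above 0 in both genotypes, with Idh2 close to it (0.02 in null and 0.05 in wildtype hearts). The cytosolic enzymes Mdh1 (0.56 and 0.60) and Got1 (0.05 and 0.24) were above 0 as well. Hearts carried Cy3 on every array, and a probe's dye effect would remain in such a ratio while it cancels between genotypes.

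Averaged over genes, the 2 genotypes overlapped. The mean of the 38 genes with values on all arrays was 0.17, 0.33, 0.28 and 0.32 in null hearts, against 0.27, 0.31, 0.44 and 0.38 in wildtype hearts. Null replicate 1 and wildtype replicate 1 were the lowest arrays of their groups, and the ranges overlapped. For the 14 such genes of the citrate cycle and shuttle the mean was 0.28, 0.37, 0.35 and 0.36 in null hearts, against 0.29, 0.41, 0.43 and 0.48 in wildtype hearts. The 20 fatty acid oxidation genes read 0.08, 0.31, 0.22 and 0.28 in null hearts, against 0.27, 0.23, 0.45 and 0.31 in wildtype hearts. By step, the median differences were -0.24 for the isomerases and -0.24 for the transaminases, -0.17 for electron transfer, -0.15 for pyruvate entry, -0.09 for the carnitine shuttle and for the acyl-CoA dehydrogenases, and 0.10 from oxoglutarate to succinate. They were -0.04 from fumarate to oxaloacetate, -0.03 from citrate to oxoglutarate and -0.03 for the hydratase, dehydrogenase and thiolase genes. Differences between steps were not tested, and steps of 2 to 7 genes share their arrays.

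Probes of the same gene were a further check on each value. Of 21 genes with several fitted probes, 7 had lower null means on all of them, 5 had higher null means on all, and 9 had both signs among their probes. The widest spreads among them were in Eci1, in Idh3a, whose 6 probes ran from -0.45 to 0.03, and in Slc25a20.

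**Figure D4:**
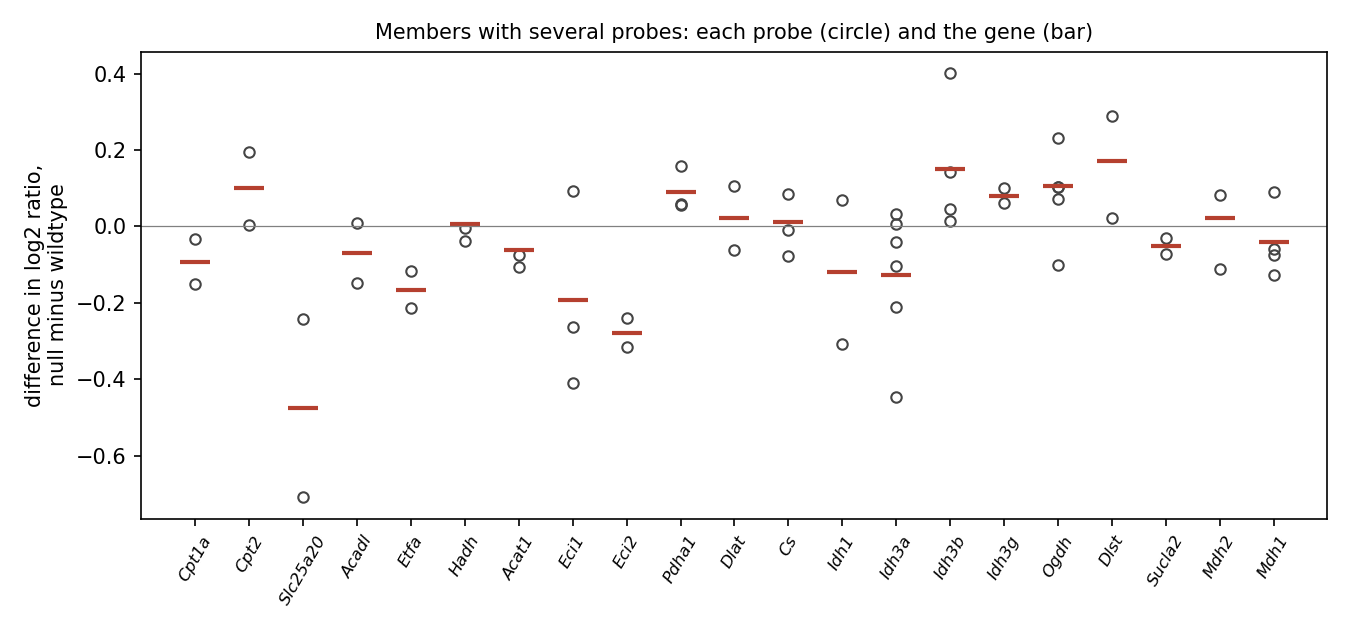
Difference in log2 ratio, null minus wildtype (y axis), on each fitted probe (circle) and for the gene (bar) in the 21 genes with several probes (x axis, pathway order). Both probes of Slc25a20, Eci2 and Etfa are below 0, the 3 of Pdha1 and the 4 of Idh3b above 0 with centred arrays, and those of Mdh2, Dlat and Idh1 lie on both sides.

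Other genes of the same pathways, listed from general knowledge, did not pass either. Of 29 fitted genes of fatty acid handling 20 had lower null means, with a median of -0.06, and 0 passed in limma, while 4 (13.8%) had an unadjusted p under 0.05, all lower, where 6.13% of all features were lower at that p. In 3 of the 29 (10.3%) the null values all lay under the wildtype range, where 5.54% of all features did so: Slc22a5, Ehhadh and Pparg, the adipocyte nuclear receptor (difference -0.54, SE 0.21). Slc22a5, the plasma membrane carnitine transporter, read -0.38, -0.41, -0.67 and -0.23 in null hearts, against 0.40, -0.06, -0.09 and -0.23 in wildtype hearts (difference -0.42, SE 0.15). Ehhadh, a bifunctional enzyme of peroxisomes, read -0.53, -0.94, -0.69 and -0.60 in null hearts, against -0.48, -0.32, -0.26 and -0.38 in wildtype hearts (difference -0.33, SE 0.12). Null replicate 4 and wildtype replicate 4 of Slc22a5 were nearly equal, and so were those of Pparg (-0.491 and -0.487). Wildtype replicate 2 of Pparg, at -0.438, was close to them. On the higher side stood the nuclear receptor gene Ppard, with 0.17, 0.31, -0.01 and -0.18 in null hearts, against -0.34, -0.39, 0.13 and 0.06 in wildtype hearts (difference 0.21, SE 0.16). The fatty acid transporter gene Slc27a4 read 0.15, -0.28, -0.34 and -0.22 in null hearts, against -0.56, -0.25, -0.12 and -0.29 in wildtype hearts (difference 0.13, SE 0.14). Both overlapped.

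Of 21 fitted further genes around the citrate cycle 14 had lower null means, with a median of -0.13. Of the 21 genes 0 passed in limma, and 2 (9.52%) had an unadjusted p under 0.05, both lower, where 6.13% of all features were lower at that p. In 1 of the 21 (4.76%), Glud1, the null values all lay under the wildtype range, where 5.54% of all features did so. Glud1, glutamate dehydrogenase, which joins glutamate to oxoglutarate as the transaminases do, read -0.79, -0.34, -0.54 and -0.24 in null hearts, against 0.12, -0.03, -0.04 and -0.04 in wildtype hearts. Its difference was -0.48 (SE 0.13, 1.40-fold, adjusted p = 0.519 in limma), without overlap, and it ranked 73 of 11804 by p-value. Bckdhb, a subunit of the branched-chain ketoacid dehydrogenase, read -0.12, 0.03, -0.05 and -0.03 in null hearts, against 0.46, -0.04, 0.45 and 0.16 in wildtype hearts (difference -0.30, SE 0.13). The pyruvate dehydrogenase kinase gene Pdk1 read 0.88, 1.53, 1.77 and 1.17 in null hearts, against 0.92, 1.00, 0.50 and 1.18 in wildtype hearts (difference 0.44, SE 0.20). The succinate dehydrogenase subunit gene Sdhd read 0.35, 0.72, 0.68 and 0.89 in null hearts, against 0.44, 0.59, 0.49 and 0.57 in wildtype hearts (difference 0.14, SE 0.13). All 3 overlapped. On the same arrays 46 of 60 fitted genes of oxidative phosphorylation had lower null means, with a median of -0.06, while 13 of 15 glycolysis genes had higher ones, with a median of 0.29. The difference between these lists and the 40 genes was not tested.

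Mean levels of the marker lists of other cell types overlapped between genotypes, each taken over the markers with values on all 8 arrays. Hepatocyte genes, whose tissue also uses many of these enzymes, had lower null means for 7 of 8 fitted markers of 12 listed. The mean log2 ratio of the 6 complete markers was -1.34 to -0.74 on null and -1.05 to -0.52 on wildtype arrays. These 6 include Afp, which raises each mean, and leave out Fgb and Fga, which lacked a value on 1 array each. The 1 marker with a higher null mean was Afp, the fetal serum protein alpha-fetoprotein, named here after its values were seen. It read 2.59, 2.53, 2.33 and 2.58 in null hearts, against 2.28, 2.07, 2.29 and 2.12 in wildtype hearts, without overlap (difference 0.32, SE 0.11, adjusted p = 0.553 in limma). Lower null means were not particular to liver genes. The list of other adult organs used for the direction of the ratio, liver included, had lower null means for 9 of 9 fitted genes. Its median difference was -0.33, and 59.1% of all features were lower. Of the 8 fitted heart muscle markers 5 had lower and 3 had higher null means. The largest difference was that of Atp2a2 (-0.24, SE 0.11), whose groups overlapped. In 1 of the 8 (12.5%) the null values all lay under the wildtype range, where 5.54% of all features did so. This was Pln, the calcium pump regulator phospholamban (difference -0.19, SE 0.10). Adipocyte genes had 3 fitted markers of 10, with lower null means for 2. Their 2 complete markers, Cidec and Ucp1, averaged -0.25 to 0.17 on null and -0.29 to 0.26 on wildtype arrays. Endothelial genes had higher null means for 6 of 7 fitted markers of 12, and 5 of them averaged 0.71 to 0.84 on null and 0.38 to 0.92 on wildtype arrays. Fibroblast genes had higher null means for 6 of 6 fitted of 9, and 4 of them averaged 0.56 to 0.90 on null and 0.28 to 0.87 on wildtype arrays. Erythroid genes had higher null means for 6 of 7 fitted of 11, and 5 of them averaged -0.27 to -0.04 on null and -0.74 to 0.01 on wildtype arrays. Macrophage genes had higher null means for 2 of 4 fitted of 8, and 3 of them averaged -0.98 to -0.65 on null and -1.07 to -0.68 on wildtype arrays. The part of these markers in the values above was not tested.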

How the data were processed

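The deposited values are log2 ratios of both dyes per spot, made by the authors; the scanner, background correction, spot filter and scaling were not given in the sources used. The log base was read from the deposited values: within blocks of 598 rows, 8347 of 31305626 pairs differed by log2 of a quotient of integers up to 120 (tolerance 1.5e-09), while natural logs gave 269 and log10 gave 863 matches. The direction is not stated in the labels; heart was taken as numerator because heart muscle markers lay above genes of other adult organs on all 8 arrays (medians 0.55 to 0.91, against -2.86 to -1.21). Deposited array medians were -0.34 to -0.08 for null and -0.31 to 0.21 for wildtype arrays; the authors' centring stays unknown, and array medians were set to 0.

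Probes were named through the platform annotation: of 28704 probes 18511 had 1 symbol, 937 several and 9256 none. Gene numbers tied 18267 of the 1-symbol probes to RefSeq's GRCm38.p6 table, which gave 0 newer symbols. Of 88 probes of the 52 genes 75 had values on no fewer than 3 null and 3 wildtype arrays. Probes of a gene were averaged by least squares on probe and array effects. Null minus wildtype was fitted on all 11804 features with lmFit and eBayes (limma 3.58.1, R 4.3.3) with Benjamini-Hochberg adjustment and a threshold of 0.05, and the procedure was tested on simulated data. The files give no spot counts or depth, so the number of arrays limits the precision. Pools are separate samples per the labels, so p-values measure the spread between pools. Whether a probe of Gja1 lies in the deleted part is not known here.

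The genes, steps and lists were chosen with earlier results of these data known. Values on every array are given for the gene with the smallest p of each step, for genes whose groups do not overlap and for a fixed set of core enzymes, and of the wider lists for the 2 genes with the smallest p in each direction. Alternatives were no centring, centring within blocks, quantile normalization, equal spread, other limits on missing values, other ways to average probes, robust eBayes, array weights, a threshold of 0.10, the replicate number as a block and each array left out, with the probes kept as in the full fit. Counts over the 40 genes under each alternative were added after seeing the data.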

Additional observations from a re-analysis of the deposited data

Results flagged for a closer look

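In 86 groups of 4 arrays, the values of 4 genes held 1 array that stood apart from the other 3 by Dixon's criterion at 95%, and chance alone marks about 1 group in 20. Lpl read 0.07 on wildtype replicate 2, against 0.49 to 0.56 on the other wildtype arrays. Acadl read 0.95 on null replicate 3, against 0.80 to 0.83 on the other null arrays. Null replicate 1 was the low array for Acaa1a, at -1.09 against -0.73 to -0.68, and for Idh3a, at 0.55 against 0.70 to 0.73.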

How the results depend on the processing

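The number of features called was 0 under every alternative run, at a threshold of 0.10 as well, while 724 lower and 248 higher features had an unadjusted p under 0.05 in limma. Gja1 stayed lower in null hearts, by -1.04 to -0.83 with each array left out. The 22 genes given by array had 417 differences under alternatives; 0 were called, 393 kept their sign and 24 did not, and 13 genes kept it throughout, among them Slc25a20, Eci2, Pdhb, Fh1, Got1 and Got2. Without centring the median of all features was -0.18 in place of -0.04, so that changes are relative to it. The medians were then -0.23 for fatty acid oxidation, -0.31 for pyruvate entry and -0.20 for citrate cycle genes. Of 40 genes 39 had lower null means, where 85% of all features did. In that fit 10 genes were lower at an unadjusted p under 0.05, where 11.6% of all features were. The sign then turned for Cpt2 (-0.0585), Cs (-0.15), Hadha (-0.0195), Idh3b (-0.007), Mdh2 (-0.14), Ogdh (-0.0535) and Pdha1 (-0.0682). Cs also turned with quantile normalization (-0.0269), equal spread (-0.0447) and the probe with the fewest missing values (-0.0084), Mdh2 with centring within blocks (-0.0254), quantile normalization (-0.0189) and equal spread (-0.0428), and Hadhb (0.0037) and Lpl (0.10) with array weights. With each array left out, Cs ran from -0.0634 to 0.0929, Mdh2 from -0.04 to 0.11 and Hadhb from -0.11 to 0.0811. The pyruvate entry median was -0.0622 over genes with values on all 8 arrays, which leaves out Pdhb, and -0.21 to -0.0155 (without wildtype replicate 3) with an array left out. Leaving out an array gave medians of -0.11 to -0.05 for fatty acid oxidation and of -0.10 to 0.01 for citrate cycle genes, the last without wildtype replicate 3. Genes lower at an unadjusted p under 0.05 numbered 2 with centring within blocks, 3 with array weights and 3 with the replicate block. Of all features 6.51%, 7.51% and 4.49% were lower at that p in these fits. With an array left out the genes numbered 1 to 4, where 4.27% to 6.38% of all features were lower at that p. Genes whose null values all lay under the wildtype range numbered 3 with centring within blocks and 5 to 8 with an array left out. The share of all features without overlap was not counted in those fits. Arrays of equal replicate number did not deviate together (correlations -0.25 to -0.01; 0 of 8 arrays correlated best with their own number), so the numbers are not treated as pairs, and the replicate block also called 0 features. The causes were not tested.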
